A study of Homo sapiens with 8 samples.

Results

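The cytosolic ribosomal protein (RP) genes encode the protein part of the ribosomes that translate nuclear-encoded mRNAs. They were taken as every gene whose symbol is RPL or RPS followed by a number and at most a final A, X or L, together with RPLP0, RPLP1, RPLP2, RPSA and RPS27A. This gave 81 of the 60332 genes in the expression table, 49 of the large and 32 of the small ribosomal subunit. The measurements came from SK-N-MC, an Ewing sarcoma cell line that carries the EWSR1-FLI1 fusion, and formed 8 RNA-seq libraries in 4 groups of 2. Control cells carried the empty lentiviral dCas9-KRAB vector, a Cas9 without nuclease activity joined to a transcriptional repressor domain, and were kept either in normoxia or for 16 h at 1% O2 (hypoxia). eKD1 and eKD2 cells carried the same repressor with 1 of 2 independent guide RNAs placed next to the GGAA microsatellite enhancer of LOXHD1. In these libraries both were measured in hypoxia only. All cells were pools selected with puromycin, not clones, and each guide is therefore represented by a single pool. The design asks how hypoxia changed RP gene expression in control cells, and how the hypoxic level of each RP gene differed once the LOXHD1 enhancer was repressed. Since no library of enhancer-repressed cells in normoxia was among these 8, the response of eKD cells to hypoxia itself could not be computed.

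Each ribosome carries a single copy of most RPs, with the acidic stalk proteins RPLP1 and RPLP2 as the known exception, and RP genes are among the most highly expressed genes of a growing cell. Vertebrate RP mRNAs typically begin with a cytidine followed by an uninterrupted stretch of pyrimidines, the 5′ terminal oligopyrimidine (TOP) motif, through which mTORC1 and LARP1 control the translation and stability of the whole family. In hypoxia mTORC1 is known to be restrained, among others by DDIT4 (REDD1). These are textbook properties and not results of the present libraries.

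The start sites of 9 RP genes are shown to let the TOP motif be read in members described below. Of these, 7 have a run of C and T across the start. RPS27L and RPS26, picked after their values were seen, have no such run. Each line gives 30 bases, 15 before and 15 from the start annotated by RefSeq, in the direction of transcription. Capitals mark the uninterrupted run of C and T that lies at or next to the start. The sequences were taken from RefSeq promoters of GRCh38.p14, and each matched exactly once near its gene in GRCh37, at the position given. The start is the one RefSeq annotates, and its place relative to the exons of the GRCh37 gene models was not checked. The windows of RPS26 and RPS27L lie inside those gene models, not at their edge.
RPLP0 (chr12:120638900-120638929, minus strand): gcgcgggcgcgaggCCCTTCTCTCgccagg
RPS6 (chr9:19380220-19380249, minus strand): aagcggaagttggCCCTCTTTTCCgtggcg
RPL13A (chr19:49990850-49990879, plus strand): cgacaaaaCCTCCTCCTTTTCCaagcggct
RPS3 (chr11:75110547-75110576, plus strand): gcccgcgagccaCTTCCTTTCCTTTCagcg
RPL41 (chr12:56510402-56510431, plus strand): cggaacttcgCCTTTCTCTCggccttagcg
RPL39 (chrX:118925579-118925608, minus strand): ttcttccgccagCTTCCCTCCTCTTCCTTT
RPS27 (chr1:153963223-153963252, plus strand): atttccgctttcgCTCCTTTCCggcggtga
RPS27L (chr15:63449662-63449691, minus strand): aagttgatgccgagCgcagatcgcttgcag
RPS26 (chr12:56435687-56435716, plus strand): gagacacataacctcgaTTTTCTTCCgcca
The run of RPL39 continues past the end of the window. The run of RPS26 begins at the third base of the annotated transcript and does not open with C, and RPS27L has a single C directly before its start. Most RP genes without a stretch counted from a C near the start rose in hypoxia as well, as given further on.

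RefSeq promoters were found for 64 of the 81 RP genes. Next, a stretch of at least 5 bases of C and T was sought, counted from a C within 2 bases of an annotated start. Bases of C and T before that C were allowed, so the run could begin earlier. Such a stretch was present in 50 of these 64 genes (78.1%). The same was true of 13.0% of all 27305 genes in that table and of 16.2% of the other tested genes. The letters ACTTCCG, read on either strand and typical of binding sites of ETS-family factors, occurred anywhere in the 300 bases around the start of 31.2% of the matched RP genes, of 8.18% of all genes in the table and of 15.7% of the other tested genes. A match describes the sequence only, and no binding was measured here.

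The whole series was checked against its labels before the RP genes were examined. LOXHD1, the target of enhancer repression, was at 93.0 and 91.1 in control hypoxia, in FPKM, which counts fragments by transcript length and library size. Its level was 16.2 ± 1.64 FPKM (mean ± SD, n = 2) with the guide of eKD1, and 11.7 and 11.8 FPKM with that of eKD2. CA9, a carbonic anhydrase induced by HIF1, lay between 56.9 and 82.8 FPKM in the 6 hypoxia libraries and was listed at 0 in normoxia, so no library went against its label. HIF1A mRNA was at 104 and 116 FPKM in control normoxia and at 33.3 and 39.0 FPKM in control hypoxia. All 9 Ewing sarcoma markers examined, such as CD99 and NKX2-2, were measured in every library, with values from 10.8 FPKM (LIPI) to 860 FPKM (CCND1). Values were deposited as FPKM without read counts, and the steps between low values gave relative depths of 56.1% to 100% of the deepest library. Nothing in the labels names a batch.

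RP genes supplied a large share of the measured transcriptome. Of the 81 genes, 79 passed a minimum of 1 FPKM in 2 or more libraries and were tested. The remaining RPL3L, the muscle paralogue of RPL3, and RPL10L, a testis paralogue of RPL10, were at most at 0.230 and 0.134 FPKM in any library. The median RP gene averaged 1991 FPKM over the 8 libraries, 66 genes averaged over 1000 FPKM, and 7 were under 500 FPKM.

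The most abundant RP mRNAs encoded RPS3, a protein at the mRNA entry channel of the small subunit, with 6986 FPKM on average, RPL8 with 6619.9 FPKM and RPL23 with 6340.1 FPKM. RPS3 lay below RPL8 in both normoxia libraries (5168 and 5454 against 5637 and 5645 FPKM) and above it in all 6 hypoxia libraries. At the low end, RPS27L (69.9 FPKM), RPL39L (99.8 FPKM), RPL39 (175 FPKM), RPS26 (189 FPKM) and RPL22 (283 FPKM) stood well apart from the body of the family. RPL39 and RPS26 did not keep 1 order: RPS26 was higher in both normoxia libraries (226 and 212 against 111 and 113 FPKM), and their ranges overlapped in control hypoxia (187 and 198 against 214 and 195 FPKM). FPKM of very short mRNAs, such as those of RPL41 and RPL39, depend on the transcript length assumed during quantification, and the part of that choice in these levels was not tested.

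**Figure D1:**
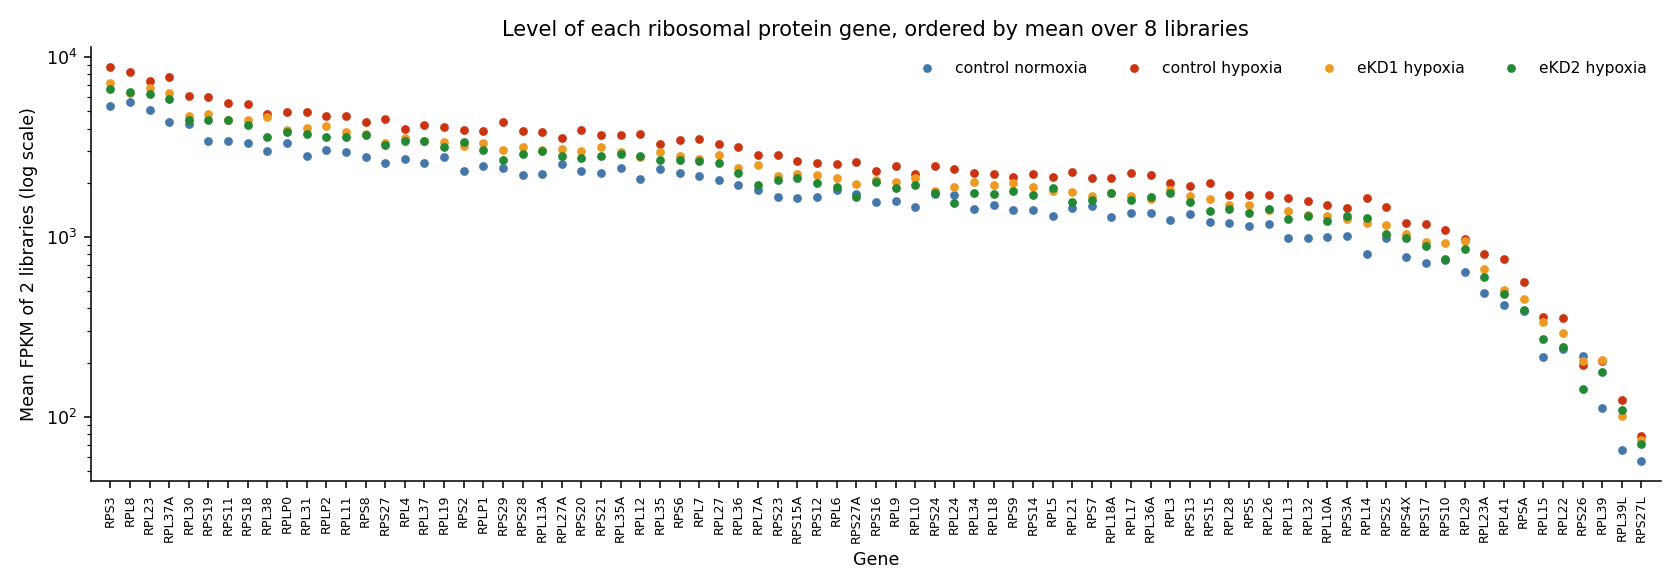
Mean FPKM of 2 libraries (vertical axis, log scale) for each of the 79 tested RP genes, ordered from left to right by the mean over 8 libraries and coloured by group. Control hypoxia is the highest group for most genes, and the 4 colours keep nearly the same order from RPS3 at 6986 FPKM down to RPS27L at 69.9 FPKM, with RPS26 as the visible exception.

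Summed RP expression was higher in hypoxic than in normoxic control cells. The 81 genes summed to 145686 and 150288 FPKM in the normoxia libraries and to 236975 and 230364 FPKM in the hypoxia libraries, a 1.58-fold higher mean. Their share of all FPKM was 16.8% and 17.1% in normoxia and 22.8% and 22.6% in hypoxia. The RP sum of the eKD1 libraries was 195783 and 189274 FPKM (19.6% and 19.7% of all FPKM), and that of the eKD2 libraries 179943 and 179993 FPKM (18.9% and 18.8%). Both eKD pools therefore lay between control normoxia and control hypoxia, and no library of any group overlapped with another group. With 2 libraries against 2, the smallest 2-sided p that an exact permutation test of such a sum can give is 0.333, and no p is given for the sums. In bulk RNA a change in the number of mRNA molecules per cell and a change in total RNA per cell cannot be told apart.

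Both subunits differed between the groups to a similar extent. Large subunit genes summed to 90575 ± 984 FPKM (mean ± SD, n = 2) in control normoxia and to 140982 ± 2549 FPKM in control hypoxia, 1.56-fold higher, and small subunit genes to 57412 ± 2270 FPKM and 92688 ± 2126 FPKM, 1.61-fold higher. The ratio of the large to the small sum was 1.61 and 1.55 in normoxia, 1.52 and 1.53 in control hypoxia, 1.56 and 1.55 in eKD1 and 1.57 and 1.54 in eKD2. The normoxia libraries differed from each other by as much as the groups did. Compared with control hypoxia, large and small sums differed by -16.8% and -18.8% in eKD1 and by -22.4% and -23.9% in eKD2.

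**Figure D2:**
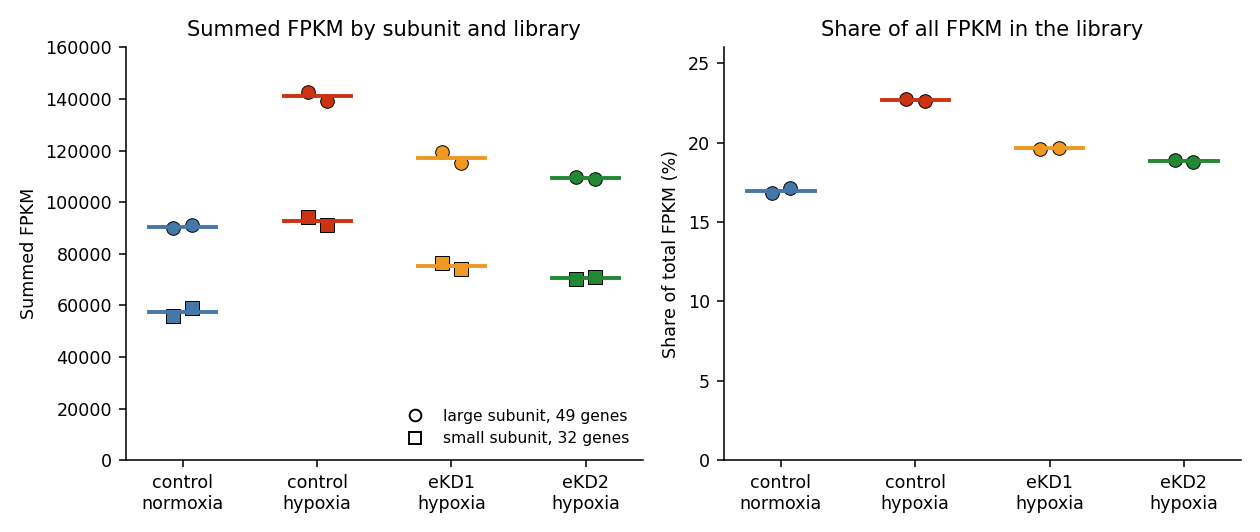
Left, summed FPKM of the 49 large subunit genes (circles) and the 32 small subunit genes (squares), with 1 point per library and bars at the group means. Right, the share of all FPKM of each library that the 81 RP genes made up in percent; it runs from 16.8% and 17.1% in control normoxia to 22.8% and 22.6% in control hypoxia, with eKD1 and eKD2 in between.

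Nearly every RP gene was higher in hypoxic than in normoxic control cells. With limma on log2(FPKM + 1) and Benjamini-Hochberg adjustment over all 15372 tested genes, 77 of the 79 tested RP genes rose (adjusted p under 0.05) and 0 fell, against 16.2% of all tested genes that rose and 16% that fell. The median log2 change of the RP genes was 0.65 (large subunit 0.66, small subunit 0.64), or 57.2% higher, while the median of all tested genes was 0.013. For 78 RP genes both hypoxia libraries lay above both normoxia libraries, as they did for 35.9% of all tested genes. The spread within the family was narrow: without RPS26 and the paralogues RPL39L and RPS27L, the 76 remaining genes lay between 0.47 and 1.05, and the middle 50% between 0.57 and 0.72. When 1 of the 4 libraries was left out, the median of the RP genes stayed between 0.65 and 0.68. The median of all tested genes then lay between 0.0021 and 0.025.

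Genes of each named site of the ribosome rose. In the stalk that recruits elongation factors, RPLP0 rose from 3309.7 and 3299 FPKM to 5006 and 4883 FPKM, a log2 change of 0.58 ± 0.03 (SE) with a limma adjusted p of 0.00665. RPLP1 (0.64), RPLP2 (0.64) and RPL12, the protein at the stalk base (0.83), rose too, so that 4 of 4 stalk genes passed. Both proteins of the 5S rRNA particle, which can also bind MDM2, were raised: RPL5 stood at 1314 and 1304 FPKM in normoxia and at 2155 and 2124 FPKM in hypoxia (0.71 ± 0.03), and RPL11 went from 2954 and 2995 FPKM to 4752 and 4641 FPKM (0.66 ± 0.03). In both genes the replicates differed by far less than the groups.

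Of the 10 large subunit genes listed for the peptide exit tunnel and its rim, all 10 rose, led by RPL39 (0.86) and RPL31 (0.81), with RPL4 at 0.55, RPL22 at 0.57 and RPL35 at 0.47, the lowest value of any large subunit gene. RPL3, which reaches toward the peptidyl transferase centre, rose from 1249 and 1245 FPKM to 1992 and 2007 FPKM (0.68), and RPL10, which joins the subunit late in its assembly, from 1413 and 1535 FPKM to 2271 and 2184 FPKM (0.60). RPL13A, a host of 4 small nucleolar RNA (snoRNA) genes, rose from 2228 and 2265 FPKM to 3861 and 3801 FPKM (0.77). Hosts and other RP genes had similar medians: the 29 tested genes with a snoRNA gene inside them had a median of 0.68 and all rose, and the 50 without one had a median of 0.65 with 48 called.

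On the small subunit, RPS3 increased from 5168 and 5454 FPKM to 8777 and 8803 FPKM (log2 change 0.73 ± 0.04, adjusted p 0.00665) and its neighbour RPS2 from 2444 and 2205 FPKM to 3845 and 4024 FPKM (0.76). RPS6, the substrate of the S6 kinases, rose from 2203 and 2298 FPKM to 3502 and 3399.7 FPKM (0.62), RPS27A, made as a fusion with ubiquitin, by 0.59, RPS4X, the X-linked copy of RPS4, by 0.63, and RPSA, also known as the laminin receptor, by 0.55. Of 5 genes near the mRNA exit channel 4 rose, among them RPS28 (0.82) and RPS14 (0.66), the gene of the 5q deletion syndrome. RPS26 was the 5th and did not rise. Of the 18 genes listed as mutated in Diamond-Blackfan anaemia 17 rose, with RPS19, the gene most often mutated in that disease, at 0.81, RPS27 at 0.81 and RPS29 at 0.86. RPS29 went from 2203 and 2599.8 FPKM to 4642 and 4086 FPKM, and RPL41, the shortest RP, from 419 and 420.4 FPKM to 791 and 726 FPKM (0.85).

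The 3 highest estimates belonged to RPL14, RPL39L and RPL39. RPL14 had the largest estimate and was not called: its libraries stood at 965 and 639 FPKM in normoxia and at 1855 and 1426 FPKM in hypoxia, so the groups did not overlap but the replicates spread more than those of other members (1.05 ± 0.26, adjusted p 0.0501). RPL39L, a paralogue of RPL39 known mainly from testis and tumours, went from 69.3 and 61.2 FPKM to 124 FPKM in both hypoxia libraries (0.92 ± 0.08, adjusted p 0.00902). RPL39 stood at 111 and 113 FPKM in normoxia and at 214 and 195 FPKM in hypoxia (0.86 ± 0.07). For RPL39 the rows of its 10 pseudogenes added up to 32.8% of its own FPKM, so its level is uncertain. With these rows added the log2 ratio of mean levels of RPL39 was 1.01 in hypoxia, -0.11 in eKD1, -0.17 in eKD2 and -0.057 in eKD2 against eKD1. For no other member was that share above 6.43%, and over the family pseudogene rows made up 0.231% to 0.287% of the RP sum.

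RPS26 was the exception of the family. It encodes a small subunit protein that contacts mRNA upstream of the start codon and that can leave the assembled ribosome. RPS26 stood at 226 and 212 FPKM in normoxia and at 187 and 198 FPKM in hypoxia, lower in both hypoxia libraries (log2 change -0.18 ± 0.06, adjusted p 0.0949), and did not pass the test. It was the single tested RP gene with a negative estimate. RPS27L, a p53-induced paralogue of RPS27, had the next lowest estimate and rose from 53.4 and 60.4 FPKM to 79.1 and 76.5 FPKM (0.45 ± 0.09, adjusted p 0.0313), while RPS27 itself went from 2490.0 and 2660.4 FPKM to 4637 and 4413 FPKM.

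**Figure D3:**
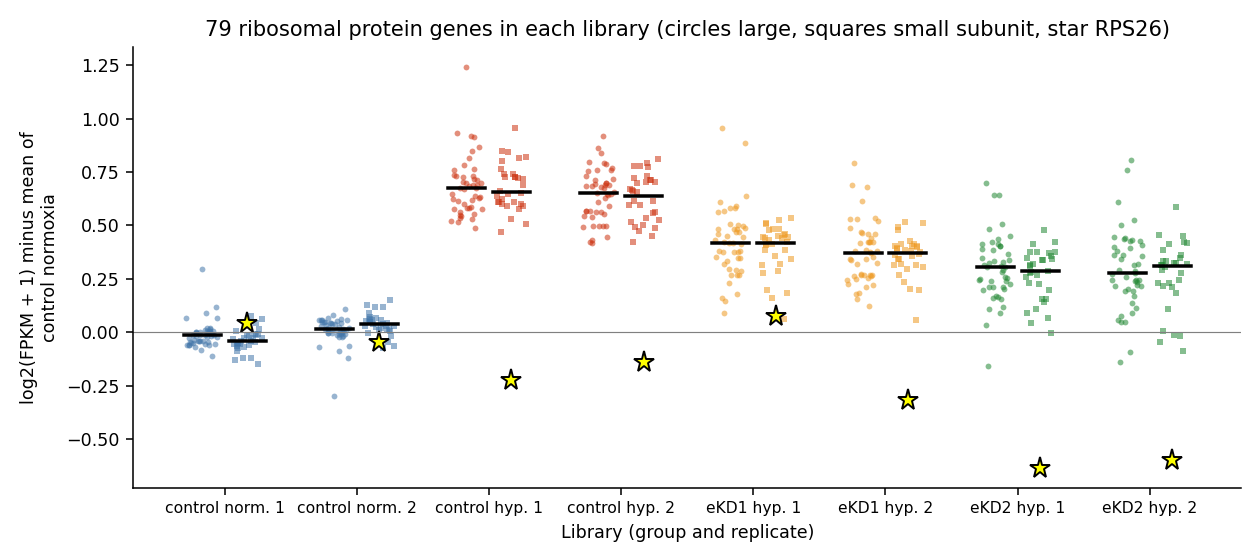
log2(FPKM + 1) of each of the 79 tested RP genes in each library, minus the gene's mean in control normoxia; circles are large and squares small subunit genes, black bars their medians, and the star RPS26. The family shifts up in control hypoxia, sits lower in eKD1 and lower again in eKD2, and RPS26 lies below the other genes in every hypoxia library except eKD1 replicate 1, where it is at the lower edge.

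In hypoxic eKD1 cells RP genes lay below the control, but none passed the adjusted test. The median log2 change of the 79 genes was -0.27 (-17.2%), 77 estimates were negative, and the median of all tested genes was 0.0024. Called lower were 0 RP genes and 0.052% of all tested genes, 8 genes in all, so few genes of any kind passed in this comparison. At an unadjusted p under 0.05, 70 RP genes were lower against 10% of all tested genes. For 75 RP genes both eKD1 libraries lay below both control libraries, as for 26% of all tested genes. A limma fit of all 8 libraries, which shares 1 estimate of the spread over the 4 groups, called 46 RP genes lower against 2.06% of all tested genes.

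The lowest eKD1 estimates were those of RPL41, RPS29 and RPS24. The level of RPL41 was 791 and 726 FPKM in the control and 506 and 503 FPKM with eKD1 (-0.58 ± 0.06, limma adjusted p 0.102), and RPS29 at 4642 and 4086 FPKM against 2990.2 and 3069 FPKM (-0.52 ± 0.07, adjusted p 0.114). RPS24 was at 2572 and 2358 FPKM and at 1803 and 1797 FPKM (-0.45). In these 3 genes the gap between the groups was wider than the distance between replicates. RPLP0 had an estimate of -0.33, RPL11 of -0.29, RPS3 of -0.29, RPS6 of -0.30, RPS19 of -0.31 and RPL13A of -0.33, and in each both eKD1 libraries were below both controls. At the other end RPS26 (187 and 198 against 231 and 175 FPKM, 0.06), RPL39 (0.012) and RPL29 (-0.039) overlapped between the groups, and without eKD1 replicate 1 the estimate of RPS26 was -0.14. So did RPL38, which was at 5491 and 3729.9 FPKM in the eKD1 libraries and at 4618 and 5073 FPKM in control hypoxia.

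In hypoxic eKD2 cells RP genes were lower than in the control, and most passed the test. Of the 79 genes 65 fell and 0 rose, against 3.81% of all tested genes that fell and 5.8% that rose. All 79 estimates were negative and all 79 genes had both eKD2 libraries below both control libraries, as did 26.4% of all tested genes. The median log2 change was -0.39 (-23.5%; large subunit -0.37, small subunit -0.40), and the median of all tested genes was 0.052. The smallest adjusted p of any RP gene was 0.0273, so the calls lie close to the threshold. Without a trend of variance on expression level the fit called 0 RP genes, while the fit of all 8 libraries called 68 lower (6.51% of all tested genes) and, without control hypoxia replicate 1, 33 (1.43%).

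RPS29 had the lowest estimate, with 2639 and 2714 FPKM in eKD2 against 4642 and 4086 FPKM in the control (-0.70 ± 0.07, limma adjusted p 0.0306). RPL41 fell to 456 and 509 FPKM (-0.65 ± 0.08, adjusted p 0.0345) and RPL24 from 2508 and 2287 FPKM to 1533 and 1555 FPKM (-0.63 ± 0.06, adjusted p 0.0284). RPS27A fell by 0.63 on the log2 scale as well. In all of them the groups did not overlap. The 4 stalk genes fell by similar amounts, RPLP0 by 0.38, RPLP1 by 0.36, RPLP2 by 0.39 and RPL12 by 0.40, and both 5S particle genes fell, RPL11 by 0.40 and RPL5 by 0.19. Of the tunnel genes 6 of 10 fell, while RPL22 (-0.54, adjusted p 0.0583) and RPL39 (-0.21, adjusted p 0.141) did not pass.

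Of the Diamond-Blackfan genes 17 of 18 fell, with RPS10 at -0.54, RPS19 at -0.42 and RPS26 at -0.43. RPS26 stood at 141 and 144 FPKM in eKD2, below the control hypoxia libraries and farther below its normoxia values (adjusted p 0.0345), so in this comparison it moved with the family. RPS3 fell to 6705 and 6639 FPKM (-0.40), RPS6 to 2697 and 2641 FPKM (-0.37) and RPS14 by 0.39, while RPS2 (-0.23, adjusted p 0.0792) and RPL10 (-0.19, adjusted p 0.0548) did not pass. The smallest differences were those of RPS27L (-0.14), RPS3A (-0.15) and RPL29 (-0.19), none of which passed the test. RPL14 (-0.35, adjusted p 0.204) had the largest adjusted p of the family.

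**Figure D4:**
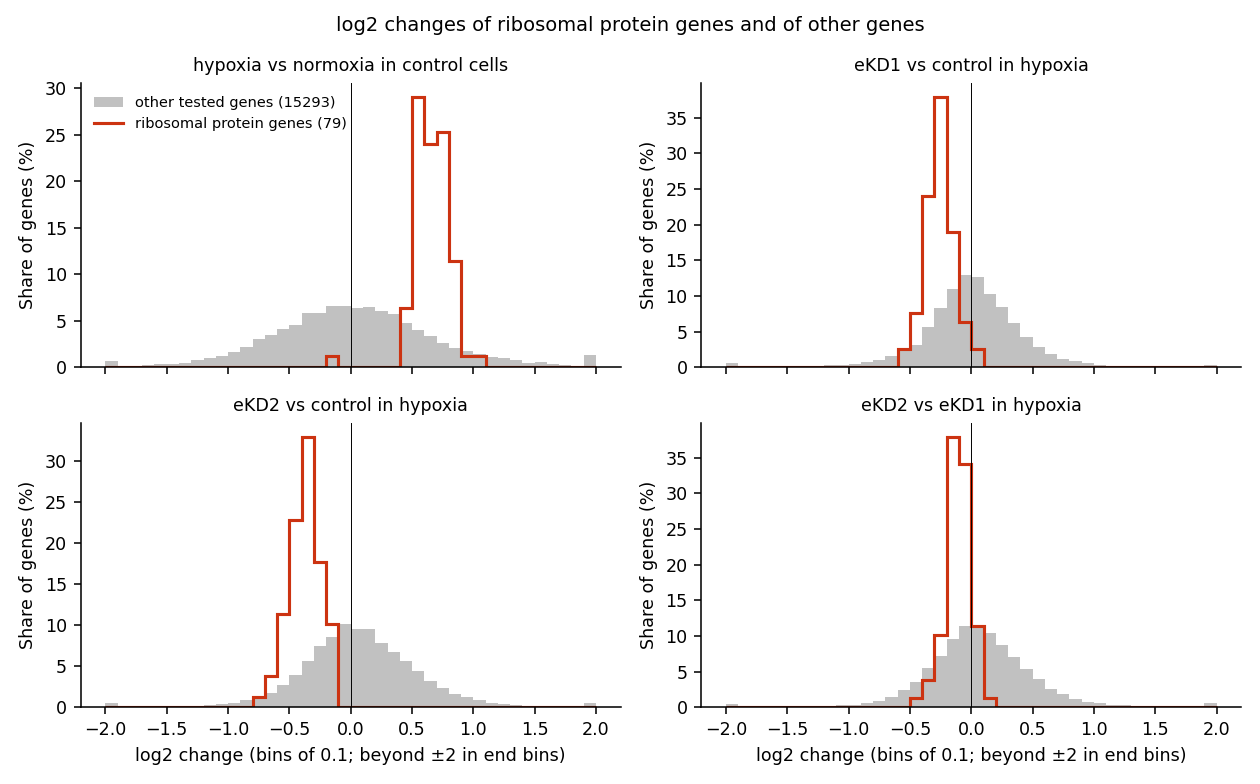
Share of genes in percent (vertical axes) by log2 change (horizontal axes, bins of 0.1) in the 4 comparisons, for the 79 tested RP genes (red line) and the other 15293 tested genes (grey). The RP genes form a narrow peak with a median of 0.65 in hypoxia, -0.27 in eKD1, -0.39 in eKD2 and -0.11 between the eKD pools, while the grey distribution is broader and centred near 0 in each panel.

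The 3 comparisons above use the same control hypoxia libraries, so their values are given side by side and not as independent evidence. For 75 of the 79 genes control hypoxia was above normoxia and above both eKD pools without overlap, as for 10.7% of all tested genes. Both eKD1 libraries lay above both normoxia libraries for 78 RP genes (median log2 difference 0.39), against 31.9% of all tested genes (0.012). For eKD2 the same held for 69 RP genes (0.29), against 37.5% of all tested genes (0.072). With every library scaled to 1 total, these counts became 68 RP genes (0.22) against 22.6% of all tested genes (-0.13) for eKD1, and 58 RP genes (0.15) against 29.8% (-0.041) for eKD2. RPS3 is typical, with 5168 and 5454 FPKM in normoxia, 8777 and 8803 FPKM in hypoxic controls, 7428 and 6914 FPKM with eKD1, and 6705 and 6639 FPKM with eKD2. RPL41 is an example of a larger difference, with 419 to 420.4 FPKM in normoxia and 456 to 509 FPKM over the 4 eKD libraries, below the 726 and 791 FPKM of control hypoxia.

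The direct comparison of eKD2 with eKD1, which does not involve the controls, gave small differences. With limma 0 RP genes were called in either direction, against 0.117% of all tested genes called lower and 0.286% called higher. The median was -0.11, 69 of 79 estimates were negative, and the median of all tested genes was 0.048. At an unadjusted p under 0.05, 23 RP genes were lower in eKD2 against 9.73% of all tested genes, and for 53 both eKD2 libraries lay below both eKD1 libraries against 23.3%. The fit of all 8 libraries called 5 RP genes lower, against 3.79% of all tested genes.

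RPS26 had the lowest estimate between the pools, with 231 and 175 FPKM in eKD1 against 141 and 144 FPKM in eKD2 (-0.49 ± 0.15, limma adjusted p 0.181). The eKD1 replicates differed from each other more than those of any other group did for this gene, and without 1 or the other of them the estimate was -0.30 or -0.69. RPL7A was next, at 2536 and 2456 FPKM with eKD1 and 1951 and 1948 FPKM with eKD2 (-0.36 ± 0.04, adjusted p 0.0767), and stayed between -0.38 and -0.33 when 1 library was left out, so it was below RPS26 without eKD1 replicate 1. RPL38 followed (-0.33), whose eKD1 replicates were the ones noted as far apart, and its estimate was -0.048 without eKD1 replicate 1 and -0.61 without eKD1 replicate 2. The highest estimates were those of RPL14 (0.10), RPL39L (0.094) and RPS2 (0.067).

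**Figure D5:**
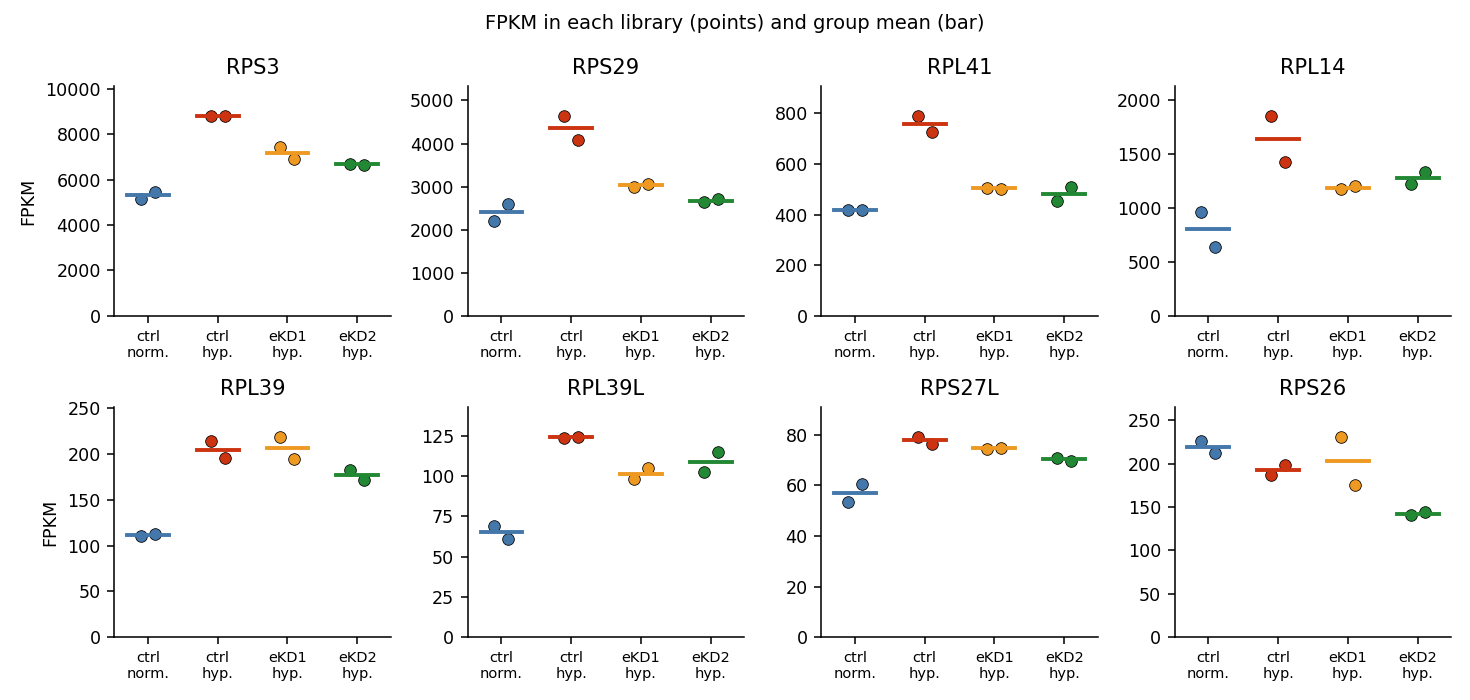
FPKM (vertical axes from 0) of 8 RP genes in control normoxia, control hypoxia, eKD1 hypoxia and eKD2 hypoxia, with 1 point per library and bars at the group means. RPS3, RPS29 and RPL41 follow the family, RPL14 shows the wide replicate spread in both control groups, and RPS26 alone has its highest group mean in normoxia.

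Paralogues and ribosome proteins outside the naming rule were compared as well. RACK1, a scaffold protein of the small subunit, rose in hypoxia (log2 change 0.57), as did RPL22L1, the paralogue of RPL22 (0.65). RPL7L1 fell by 0.53, and FAU, the precursor of RPS30, was at 0.22 with a limma adjusted p of 0.0563. In eKD2 FAU fell by 0.40, RACK1 by 0.23 and RPL36AL, a paralogue of RPL36A, by 0.91, from 221 and 213 FPKM to 112 and 120 FPKM. None of these 5 genes passed the limma test in eKD1. At an unadjusted p under 0.05 RACK1 (-0.15), RPL22L1 (-0.61) and RPL36AL (-0.21) were lower there, and RPL7L1 was higher (0.20). Some RP genes share sequence with neighbours listed separately: the read-through genes RPL17-C18orf32, RPL36A-HNRNPH2 and RPS10-NUDT3 stood at 15.7 to 49.5 FPKM, so the split of reads between them and RPL17, RPL36A and RPS10 is uncertain.

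RP genes of the mitochondrial ribosome did not share the pattern of the cytosolic ones. Of 78 such genes 5 rose and 19 fell in hypoxia (median -0.13), 0 passed in eKD1 (median -0.0077), and 2 rose and 1 fell in eKD2 (median 0.00069). Of all tested genes, 16.2% rose and 16% fell in hypoxia, and 5.8% rose and 3.81% fell in eKD2. Other abundant genes did move in part with the RP genes: of 173 other genes with a mean of at least 500 FPKM, 96 rose and 32 fell in hypoxia (median 0.35), 125 of 173 estimates were negative in eKD1 with 0 called (median -0.096), and 65 fell and 10 rose in eKD2 (median -0.23). The part of a general shift of abundant transcripts in the RP values was not tested.

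Other mRNAs known for TOP motifs moved in the direction of the RP genes in hypoxia, with smaller changes. Of the 22 genes listed, 18 rose and 1, EIF4A2, fell (median 0.39), against 16.2% and 16% of all tested genes. The list holds elongation and initiation factors, some snoRNA hosts, and other genes such as PABPC1, NPM1 and TPT1. EEF2, the elongation factor of translocation, had the largest change (0.85), and EIF4B, a cofactor of the EIF4A helicase, rose by 0.73. In eKD1 0 of 22 passed (median -0.16), where EIF3E stood at -0.34. In eKD2 5 fell, including EEF1D (-0.46), and SNHG1, a non-coding snoRNA host, rose by 0.76 (median -0.18). Of all tested genes 3.81% fell and 5.8% rose in eKD2. Within the RP family, 49 of 50 tested genes with the stretch counted from a C near the start rose in hypoxia (median 0.65) and 40 of 50 fell in eKD2 (-0.39). Of those with a RefSeq promoter but without it, 12 of 13 rose (0.63) and 12 of 13 fell (-0.41). In eKD1 the medians were -0.27 with it and -0.21 without it. There 45 of 50 and 10 of 13 were lower at an unadjusted p under 0.05, against 10% of all tested genes. The fit of all 8 libraries called 32 of 50 and 4 of 13 lower, against 2.06% of all tested genes. The difference between RP genes with and without the stretch was not tested.

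Single regulators of TOP mRNAs around mTORC1 changed in both directions. DDIT4, which restrains mTORC1, stood at 7.53 and 7.58 FPKM in normoxia and at 486 and 477 FPKM in control hypoxia (log2 change 5.82, limma adjusted p 0.0014). LARP1, the protein that binds TOP motifs, fell from 338 and 355 FPKM to 141 and 169 FPKM in hypoxia (-1.16) and was higher in eKD2, at 308 and 256 FPKM (0.86, adjusted p 0.0488). Its eKD1 value was 0.64 with an adjusted p of 0.123. In hypoxia 3 of 15 listed regulators rose and 5 fell, against 16.2% and 16% of all tested genes. In eKD1 0 passed, and in eKD2 2 rose, against 5.8% of all tested genes. These counts were not tested against those shares. RPTOR (0.72 in eKD1) and DEPTOR (0.42 in eKD2), both parts of mTOR complexes, did not pass. Among 5 chaperones of single RPs only GRWD1, which serves RPL3, passed in hypoxia and fell by 1.06. The fit of all 8 libraries called 2 of the 5 lower. HEATR3, which serves RPL5, was at 5.55 and 14.97 FPKM in the normoxia replicates and did not pass (-0.51). None of the 5 passed in either eKD pool. In eKD1 HEATR3 was at 0.65 and GRWD1 at 0.52, and 3 of 5 estimates were positive. In eKD2 HEATR3 was at 0.56 and BCCIP, which serves RPL23, at -0.24, and again 3 of 5 were positive. The limma fit of all 8 libraries called GRWD1 higher in eKD1 (adjusted p 0.0358), with 444 of 15372 tested genes.

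The size of these changes depends on how libraries are scaled. The total FPKM of a library ranged from 865107 in control normoxia replicate 1 to 1041460 in control hypoxia replicate 1. When every library was scaled to 1 total, the median of all tested genes moved to -0.19 in hypoxia and to 0.14 in eKD2, and the RP medians became 0.41 and -0.28, with 72 RP genes higher and RPS26 called lower in hypoxia and 49 lower in eKD2. Over all tested genes, 10.2% were then called higher and 25.7% lower in hypoxia (1566 against 3944), and 2.8% lower in eKD2 (430, against 1478 called higher). Under median-of-ratios scaling 77 RP genes rose in hypoxia, with 16.3% of all tested genes, and 71 fell in eKD2, with 5.59%.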

How the data were processed

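Poly-A RNA-seq reads of 8 SK-N-MC libraries were aligned by the authors with STAR to hg19 and summarised with Cuffnorm; the deposited values are FPKM per gene, whose total differs between libraries, and no counts were used here. Here, a gene was kept if 2 or more libraries reached 1 FPKM (15372 of 60332), values were taken as log2(FPKM + 1), which understates changes of low genes, and each comparison was fitted on its own 4 libraries with limma 3.58.1 in R 4.3.3 (empirical Bayes with a variance trend, 2-sided, Benjamini-Hochberg over all tested genes, threshold 0.05). The fit was tested on simulated data for the hypoxia comparison only. Replicates are biological duplicates per the study, so p-values rest on 2 libraries a group. The RP genes and gene lists were chosen with earlier results of these data known. Genes named with values were 22 fixed members, paralogues ending in L, the 3 highest and 3 lowest changes of each comparison, the 3 most and least abundant members, and the 2 largest changes of each list. One listed gene outside the RP set is not reported here. RPL14 and RPS29 were also described in further comparisons. Gene models came from GENCODE for GRCh37 and start sites from RefSeq. Alternatives were another pseudocount, no or a stricter filter, other scalings, the replicate number as a block, a joint fit of the 8 libraries, a fit without the variance trend, and leaving out each library.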

Additional observations from a re-analysis of the deposited data

Results flagged for a closer look

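SNHG1 and EIF4EBP1 differed between the eKD pools by a test of the difference itself. SNHG1, a non-coding host of snoRNA genes with a TOP start, had 407 and 365 FPKM with eKD1 and 857 and 841 FPKM with eKD2, around 505 and 494 FPKM in the hypoxic control (eKD2 against eKD1 1.14 on the log2 scale, limma adjusted p 0.0461). EIF4EBP1, the mTORC1 substrate that blocks EIF4E, had 558 and 567 FPKM with eKD1 and 916 and 966 FPKM with eKD2, around 750.3 and 751 FPKM in the hypoxic control (0.74, adjusted p 0.0461). The median of the 79 tested RP genes was negative in both pools against control hypoxia.

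For 3 further genes every eKD1 library lay on one side of both control hypoxia libraries and every eKD2 library on the other, and the direct test between the pools did not pass. DDIT4 had 348 and 365 FPKM with eKD1 and 489 and 494 FPKM with eKD2, around control values of 486 and 477 FPKM (eKD2 against eKD1 0.46, limma adjusted p 0.0705). GAS5, another snoRNA host, differed by 0.38 (adjusted p 0.0854) and TSC2, an inhibitor of mTORC1, by -0.54 (adjusted p 0.163), which does not show a difference.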

How the results depend on the processing

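Over all settings listed in the methods, the RP median stayed positive in hypoxia and negative in the other 3 comparisons. Scaling to equal totals gave medians of 0.41 in hypoxia, -0.20 in eKD1 and -0.28 in eKD2, scaling to equal totals of the other genes gave 0.51 in hypoxia, and median-of-ratios scaling gave -0.46 in eKD2. The number of RP genes called in eKD1 and in eKD2 against eKD1 was 0 in the fits of 4 libraries, 72 and 37 with no filter on low values (2194 and 2413 of all genes called), and 46 and 5 in the joint fit of 8 libraries; the cause was not tested. In eKD2 against control 0 were called without the variance trend (28 of all genes called) and 0 with a replicate block (0 of all genes), against 65. Over all tested genes the replicate numbers did not pair the libraries (correlations of replicate deviations between groups -0.057 to 0.13 over 15372 genes). Over the 79 tested RP genes these correlations ran from -0.44 (control hypoxia with eKD1) to 0.35 (control normoxia with eKD1). Under the block 71 RP genes were called in hypoxia (2570 of all genes called) and 0 in eKD1 and in eKD2 against eKD1 (0 of all genes). Leaving out any 1 library left 1 group with a single library and, in fits of the remaining 3, 0 called genes of any kind. In the joint fit of the remaining 7 libraries, an alternative chosen after seeing the data, 76 to 77 RP genes were called in hypoxia, 0 to 3 in eKD1, 33 to 48 in eKD2 and 1 to 2 in eKD2 against eKD1, so that the full range over leave-outs is 0 to 77, 0 to 3, 0 to 48 and 0 to 2; the 33 came without control hypoxia replicate 1. Signs of small single estimates turned in these cases: with equal totals RPL10 (0.0015), RPS27L (0.013), RPL29 (0.033) and CA9 (0.067) in eKD1 and RPL13A (0.0049) in eKD2 against eKD1; with equal totals of the other genes CA9 in eKD1 (0.012); with the rows of its pseudogenes added, an alternative chosen after seeing the data, RPL39 in eKD1 (-0.11); with median-of-ratios scaling RPL39 in eKD1 (-0.011) and RPL8 in eKD2 against eKD1 (-0.028). Leaving out 1 library, HEATR3 in hypoxia ran from -1.15 to 0.13; in eKD1 RPL39 from -0.070 to 0.094, RPS26 from -0.14 to 0.26, RPL29 from -0.096 to 0.018 and CA9 from -0.10 to 0.095; and in eKD2 against eKD1 RPL4 from -0.089 to 0.013, RPL41 from -0.15 to 0.012, RPS27 from -0.094 to 0.0074 and RPL8 from -0.0055 to 0.049. Of 185 changes of single genes, equal totals took 10 calls away and added 1, equal totals of the other genes took 4 and added 1, median-of-ratios scaling took 2 and added 3, no filter added 66, the joint fit added 38 and took 1, the block took 41 and added 1, and the fit without the variance trend took 38. Only relative depth is known, and 2 libraries a group limit every p-value.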
